A study of Mus musculus with 4 samples.

Results

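The suppressors of cytokine signalling (SOCS) are a family of 8 genes, Socs1 to Socs7 and Cish, and all 8 were found by symbol among the 55487 genes of the count table. They were compared between myeloid cells sorted from the livers of mice of 2 genotypes, in 2 libraries each: LysM-Cre IL10R wt/wt and LysM-Cre IL10R fl/fl. Every mouse carried LysM-Cre, which expresses the Cre recombinase from the lysozyme 2 locus of macrophages, monocytes and granulocytes, so the genotypes differed in whether the interleukin-10 (IL-10) receptor gene was floxed (fl) and open to deletion in those cells. Cells were kept by the sort when they carried CD45 and CD11b and lacked CD3 and CD11c. The labels give no age, sex, treatment or strain, and do not say whether the libraries of a genotype came from separate animals. The fl/fl libraries differed in their sex-linked RNA, given below, so their spread is not only technical; the spread of the wt/wt libraries may be, and p-values measure the spread between these libraries.

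SOCS proteins are feedback inhibitors. A cytokine activates JAK kinases on its receptor, these activate STAT transcription factors, and the STATs switch on SOCS genes, whose proteins bind the receptor or the kinase through an SH2 domain and recruit a ubiquitin ligase through a SOCS box. In macrophages, IL-10 acts through STAT3, and Socs3 is a standard target of that signal, while Socs1 is induced by interferons and Cish and Socs2 through STAT5.

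Socs7 fell 2.14-fold in fl/fl, and it was the only member of the family to pass the test in the comparison of all 4 libraries. Cish, Socs2, Socs1 and Socs6 also had both fl/fl libraries below both wt/wt libraries, at fitted differences of 2.52-fold, 12.6-fold, 1.91-fold and 1.48-fold, but none of these passed. Socs3, the most abundant member by far, had overlapping libraries, and so did Socs4 and Socs5. By the edgeR quasi-likelihood test, with p-values adjusted over all 13496 tested genes by the Benjamini-Hochberg method and 0.05 as the threshold, 1 of the 8 members was lower, 0 were higher and 7 did not pass. Among all tested genes, 5.85% passed in either direction, 2.69% higher and 3.16% lower. At an unadjusted p under 0.05 stood 5 members, all lower, which is 62.5% of the family against 22.5% of all tested genes. Separation of the libraries alone was common: 62.5% of the members and 54.4% of all tested genes had libraries of the genotypes that did not overlap. The median log2 fold change, fl/fl over wt/wt, was −0.75 over the 8 members and 0.02 over all tested genes.

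**Figure D1:**
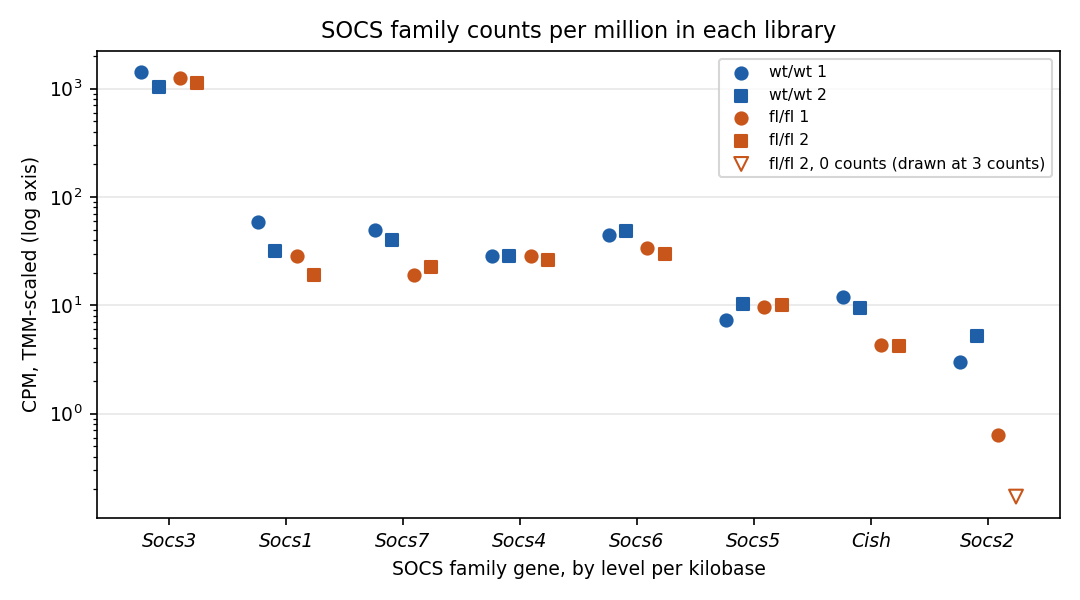
Counts scaled to library size (CPM, log axis) of the 8 SOCS family genes in each of the 4 libraries, wt/wt in blue and fl/fl in orange, ordered from left to right by mean level per kilobase of exon. Both fl/fl points lie below both wt/wt points for Socs1, Socs7, Socs6, Cish and Socs2; the open triangle is the fl/fl 2 library, which held 0 counts of Socs2, drawn at the level of 3 counts.

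Some facts of the whole series bear on every value below. Total counts were 22694136 and 26441014 in wt/wt 1 and 2 and 17750343 and 17154042 in fl/fl 1 and 2. Il10ra, the ligand-binding chain of the IL-10 receptor, was taken as the floxed gene, although IL10R in the labels could mean either chain. It had a CPM of 1111 and 993 in the wt/wt and 69.3 and 14.8 in the fl/fl libraries (log2 fold change −4.64, SE 0.68; adjusted p = 0.0193, edgeR). Without fl/fl 1 the log2 fold change of Il10ra was −6.18 and without fl/fl 2 it was −3.92, and it did not pass without wt/wt 1 (adjusted p = 0.159) or wt/wt 2 (0.0905). The gate's positive markers were present in each library, at 1095 to 1580 CPM for Ptprc (CD45) and 368 to 501 CPM for Itgam (CD11b). Of the CD3 genes, Cd3e was at 0.0737 CPM or 0, Cd3g at 0 to 0.466 CPM and Cd3d at 0.626 to 1.31 CPM. Itgax, the gene of CD11c, which the gate selects against, stood at a CPM of 158 and 134 in the wt/wt and 24.6 and 47.1 in the fl/fl libraries. Marker genes of other cell types moved with the genotype: 11 of 12 granulocyte precursor genes and 8 of 12 mature neutrophil genes were higher in fl/fl, 1 mature neutrophil gene (Cxcr4, log2 fold change −1.44) and 4 of the 7 tested Kupffer cell genes were lower, and 2 of the 3 tested NK cell genes were higher (Gzma and Prf1). Cxcr4, Gzma, Prf1 and the other NK cell genes given below were named after their values were seen. The summed level of the precursor list was 1100 and 1120 CPM in wt/wt and 12766 and 6715 CPM in fl/fl. Most of the fl/fl sums came from Ngp (5372 and 2394 CPM) and Ltf (3331 and 1941 CPM), so they say little about the other members. The Kupffer list summed to 1187 and 1230 against 526 and 420 CPM, led by Hmox1 and C1qb. Its defining members Clec4f, Timd4 and Vsig4 were at or under 0.873 CPM in each library. The mature neutrophil list summed to 2960 and 3710 CPM against 29711 and 12206 CPM, led by S100a9 and S100a8. The NK cell list summed to 2.92 and 2.98 CPM against 12.3 and 19.1 CPM, and the T cell list to 1.14 to 3.60 CPM over the 4 libraries. Most of the fl/fl NK sums came from Gzma (8.44 and 12.1 CPM). Klrb1c, also tested, had overlapping libraries (log2 fold change 0.26). Of the untested NK genes, Ncr1 was lower in fl/fl (0.809 and 0.295 against 0.0582 and 0.228 CPM), Klre1 was higher and Eomes overlapped. Of the 12 cell cycle genes, 8 were higher in fl/fl. The 11 monocyte genes had 1 higher and 1 lower, and the 7 tested dendritic cell genes had 1 lower. Among 7 basophil and mast cell genes and 3 tested eosinophil genes, 1 each was higher. No tested gene passed in the T cell, B cell, erythroid, hepatocyte or endothelial and stellate lists. Over all tested genes, 2.69% were higher and 3.16% lower. The library fl/fl 2 had 4298 counts of Xist, the RNA of X inactivation, and 1 count of 4 Y-linked genes together, whereas the other 3 libraries had 0 of Xist and 3455 to 6562 of the Y-linked genes. In sorted bulk cells, a lower share of cells that express a gene and less RNA per cell cannot be told apart, and the part of these cell type and sex differences in the SOCS values was not tested.

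Socs3 (ENSMUSG00000053113; GRCm38 chromosome 11, 117966079 to 117970047, minus strand) encodes the inhibitor that docks on the gp130 chain of the IL-6 receptor and on the receptor for the granulocyte factor G-CSF. It had a CPM of 1423 and 1042 in the wt/wt and 1246 and 1136 in the fl/fl libraries, from 19913 to 31669 counts. The fl/fl values lay between the wt/wt values. The Socs3 log2 fold change came to −0.05, with an SE of 0.20 (adjusted p = 0.922, edgeR; 95% interval −0.53 to 0.43). In fold terms the interval runs from 0.692 to 1.35, so that a modest change in either direction was not detectable with these libraries. The value changed sign with single libraries left out, from −0.25 without wt/wt 2 to 0.15 without wt/wt 1.

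Levels of different genes were compared per kilobase of merged exon (RPKM, from the TMM-scaled CPM). Socs3 stood at 360 to 492 RPKM and made up 92.7% to 95.6% of the summed RPKM of the family in each library. Next came Socs1, at 6.50 to 20.1 RPKM, and then Socs7 (2.62 to 6.74), Socs4 (3.79 to 4.17) and Socs6 (2.60 to 4.31). Socs5 (1.13 to 1.61), Cish (0.649 to 1.87) and Socs2 (0 to 0.545) were the lowest. The ranges over libraries were separate between Socs3 and Socs1, between Socs6 and Socs5, and between Cish and Socs2; all other neighbours in this order had overlapping ranges. Socs1 was nevertheless above Socs7 in each of the 4 libraries. Socs7 was above Socs4 in both wt/wt libraries, at ratios of 1.64 and 1.32, and below it in both fl/fl libraries, at 0.637 and 0.818. Merged exon lengths count every annotated isoform, which lowers the RPKM of genes whose isoforms add length. The number of merged exons does not show how far: Cish has 3 that total 6419 bases, and Socs1 has 2 that total 2908. Socs2 has 13 that total 9531 bases and Socs6 has 15 that total 11349. The order of the lower members, among them Cish, depends on these lengths.

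Socs7 (ENSMUSG00000038485; chromosome 11, 97362551 to 97398542, plus strand) encodes one of the larger members of the family, with a long amino-terminal region and a known role in restraining insulin signalling. It had a CPM of 49.0 and 40.01 in the wt/wt and 19.0 and 22.5 in the fl/fl libraries, from 1090, 1086, 327 and 395 counts. Both fl/fl libraries were below both wt/wt libraries. The Socs7 log2 fold change came to −1.10, with an SE of 0.20 (adjusted p = 0.0301, edgeR; 95% interval −1.57 to −0.62). Within the genotypes the libraries of Socs7 differed by 0.29 and 0.24 on the log2 scale, less than the difference between the genotypes. The size held when single libraries were left out, at −1.23 to −0.99. The call did not: it was lost without wt/wt 1 (adjusted p = 0.237) or wt/wt 2 (adjusted p = 0.117), where no gene at all passed in edgeR and the genes below 0.05 before adjustment numbered 1576 and 2333. DESeq2 on the same 3 libraries gave Socs7 an adjusted p of 0.336 and 0.0532.

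Socs6 (ENSMUSG00000056153), the closest relative of Socs7 in the family and known to bind the receptor kinase Kit, had a CPM of 44.2 and 48.9 in the wt/wt and 33.6 and 29.5 in the fl/fl libraries. Its libraries were separated as well, by a smaller margin. The Socs6 log2 fold change came to −0.56, with an SE of 0.17 (adjusted p = 0.116, edgeR; 95% interval −0.98 to −0.15), and Socs6 passed under none of the other settings that were run. The other pair of larger members, Socs4 (ENSMUSG00000048379) and Socs5 (ENSMUSG00000037104), is known for acting on the epidermal growth factor receptor. Socs4 had overlapping libraries, with a CPM of 28.3 and 28.7 in the wt/wt and 28.3 and 26.1 in the fl/fl libraries (log2 fold change −0.07, 95% interval −0.49 to 0.35). Socs5 had a CPM of 7.23 and 10.4 in the wt/wt and 9.61 and 10.1 in the fl/fl libraries. Its log2 fold change of 0.16, with an interval of −0.53 to 0.86, turned to −0.12 without wt/wt 1.

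**Figure D2:**
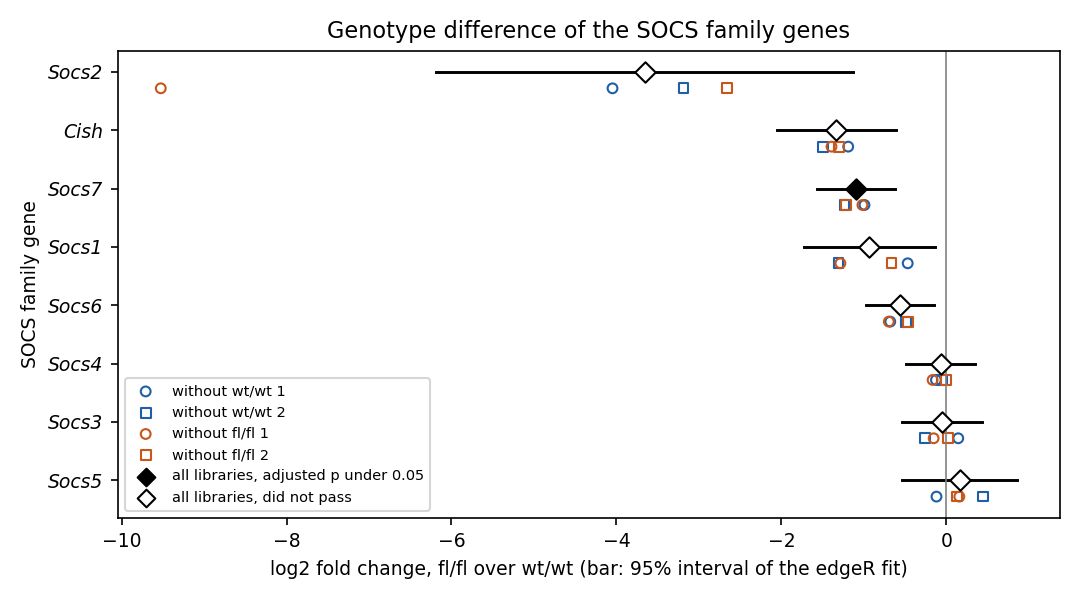
Log2 fold change, fl/fl over wt/wt, of each SOCS family gene (diamonds) with its 95% interval from the edgeR fit (bars), and the values with 1 library left out (open circles and squares below each bar). The filled diamond of Socs7 marks the only adjusted p under 0.05; the intervals of Cish, Socs2, Socs1, Socs6 and Socs7 lie below 0, and the Socs2 value without fl/fl 1, at −9.52, depends on the prior count because the remaining fl/fl library held 0 counts.

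Cish (ENSMUSG00000032578; chromosome 9, 107296026 to 107302784, plus strand) encodes CIS, the founding member of the family, which blocks the docking of STAT5 on cytokine receptors. It had a CPM of 12.0 and 9.36 in the wt/wt and 4.31 and 4.17 in the fl/fl libraries, from 267, 254, 74 and 73 counts. The fl/fl libraries lay close together and below both wt/wt libraries. The Cish log2 fold change came to −1.33, with an SE of 0.30 (adjusted p = 0.0532, edgeR; 95% interval −2.05 to −0.61). This value sits at the threshold: with all 4 libraries, Cish passed with library size scaling (adjusted p = 0.0425), upper quartile scaling (0.0473), a filter at a CPM of 5 (0.0436), no filter (0.00413) and DESeq2 (0.00645), and did not pass with RLE scaling (0.0523) or limma-voom (0.0723). It was lost by a wide margin without wt/wt 1 (adjusted p = 0.397) or wt/wt 2 (0.168), while the log2 fold change stayed between −1.50 and −1.19. In edgeR it passed without fl/fl 1 (0.0449) or fl/fl 2 (0.0493), and in DESeq2 it passed with no library left out but with none of the sets of 3 libraries (adjusted p = 0.108 to 0.771). Of the exonic length of Cish, 11.5% is shared with the annotated genes Gm17040 and Gm17041 on the opposite strand, both listed at 0 counts in each library.

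The start of Cish by RefSeq holds letters of the kind that STAT dimers bind, shown here because Cish, a STAT5 target, stood next to the threshold. The motif searched was TTCNNNGAA, which reads the same form on both strands, in RefSeq's windows of 250 bases before to 50 after the start (GRCm38.p6). Windows were found for Cish, Socs1, Socs3 and Socs4, which is 4 of the 8 members. Cish had 2 matches, the first beginning at the first base of the RefSeq start and lying in a UTR by the GENCODE annotation. Socs3 had 1, beginning 154 bases before the RefSeq start and outside annotated exons. In GENCODE both genes begin further upstream, Cish at 107296026 and Socs3, on the minus strand, at 117970047. Socs1 and Socs4 had no match in this window. Of all 32851 windows, 8.30% held at least 1 match and 0.457% held 2 or more. A match is a description of the letters, not evidence of binding. The capitals mark the matches in chr9:107296654-107296683 (plus strand) and chr11:117969492-117969540 (minus strand):
Cish: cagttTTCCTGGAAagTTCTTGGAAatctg
Socs3: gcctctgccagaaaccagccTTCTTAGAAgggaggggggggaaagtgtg

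Socs2 (ENSMUSG00000020027; chromosome 10, 95385362 to 95417180, minus strand), which restrains growth hormone signalling and is also a STAT5 target, was the scarcest member. It had 66 and 141 counts in wt/wt and 11 and 0 counts in fl/fl, or 2.96 and 5.19 CPM against 0.641 CPM and 0. Both fl/fl libraries were below both wt/wt libraries. The 0 counts in fl/fl 2 allow up to 3 counts, or 0.171 CPM, so that Socs2 in that library was at least 23.8-fold lower than the wt/wt mean of 4.08 CPM; this limit covers counting error only. The Socs2 log2 fold change came to −3.66, with an SE of 1.06 (adjusted p = 0.0996, edgeR), with a 95% interval of −6.19 to −1.13, the widest of the family. With a prior count of 5 it was −2.96. Socs2 passed without fl/fl 1 (adjusted p = 0.00396) and without fl/fl 2 (0.0388), with DESeq2 (0.00705) and without a filter (1.31e-06), and it did not pass without wt/wt 1 (0.353) or wt/wt 2 (0.364). The library with 0 counts is also the one with Xist counts; without it, the log2 fold change of Socs2 was −2.66.

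Socs1 (ENSMUSG00000038037; chromosome 16, 10782240 to 10785536, minus strand), which blocks JAK kinases directly and restrains interferon signalling, had a CPM of 58.4 and 31.5 in the wt/wt and 28.2 and 18.9 in the fl/fl libraries. The groups did not overlap, but wt/wt 2 stood close to fl/fl 1, and the wt/wt libraries differed from each other by 0.89 on the log2 scale. The Socs1 log2 fold change came to −0.93, with an SE of 0.33 (adjusted p = 0.162, edgeR; 95% interval −1.73 to −0.14), about the size of that gap. It moved from −0.47 without wt/wt 1 to −1.31 without wt/wt 2. Per kilobase, Socs3 stood 24.5 and 33.3 times above Socs1 in wt/wt and 44.5 and 60.5 times above it in fl/fl.

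**Figure D3:**
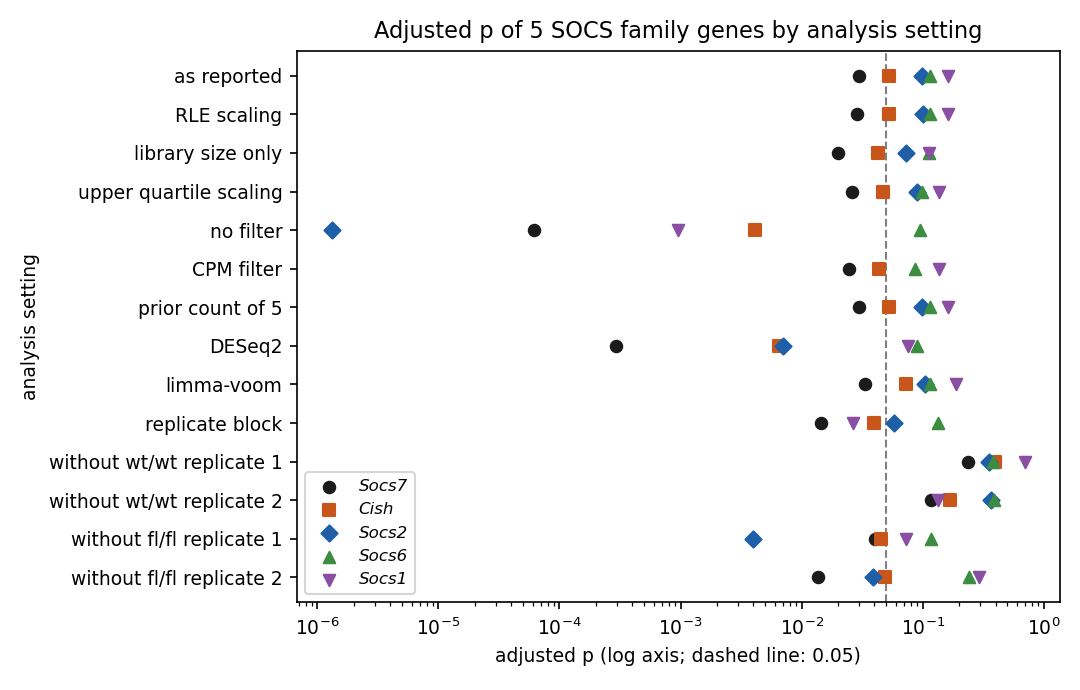
Adjusted p (log axis) of the 5 SOCS family genes whose libraries did not overlap, under each analysis setting; the dashed line is the threshold of 0.05. Socs7 lies left of the line except without wt/wt 1 or wt/wt 2, Cish lies close to the line in most settings, and Socs6 lies right of it in each setting shown.

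Genes with the most similar profiles were sought for Socs3, Socs7 and Cish among the 6747 or 6748 other tested genes of at least median expression, by the Euclidean distance between log2 CPM centred on the mean of the 4 libraries. Over only 4 libraries such a ranking is a description. For Cish these were Runx1 (distance 0.0247), Irak2 (0.0383) and Bin1 (0.0458). Runx1, a transcription factor of blood cell development, held 188, 150, 72.7 and 71.5 CPM in wt/wt 1, wt/wt 2, fl/fl 1 and fl/fl 2. For Socs7 they were Appl2 (0.0671), Tbc1d9 (0.0728) and Specc1l (0.0769), and for Socs3 they were Scfd1 (0.0550), Ubap2 (0.0615) and Rad9a (0.0624).

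In short lists of the machinery that SOCS proteins use and of other proteins with a SOCS box, no gene passed in edgeR. Among all tested genes 5.85% passed, so few or no calls would be likely in lists of 9 and 14 tested genes. SOCS boxes bind Elongin B and C and Cullin 5; of the 9 tested ligase partners, 0 passed, with 1 lower at an unadjusted p under 0.05 and 1 lower in DESeq2 and 0 in limma-voom. That gene was Arih2, a ligase that works with Cullin 5, with a CPM of 125 and 111 in the wt/wt and 75.5 and 78.5 in the fl/fl libraries (log2 fold change −0.62, adjusted p = 0.0713, edgeR). Among proteins outside the family that carry a SOCS box, 14 of 16 were tested and 0 passed, with 1 higher and 1 lower at an unadjusted p under 0.05, 1 higher in DESeq2 and 0 in limma-voom. Asb7 was at 1.00 and Asb2 at −2.37 (adjusted p = 0.0794 and 0.141). The medians of these lists were 0.11 and −0.04. At an unadjusted p under 0.05 stood 11.1% and 14.3% of their tested genes, against 22.5% of all tested genes.

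With all 4 libraries and the settings above, no kinase or STAT upstream of the family and no other inhibitor of the pathway passed in edgeR. Few or no calls would be likely in lists of 11 and 13 genes, since 5.85% of all tested genes passed. Of 11 JAK and STAT genes, 0 passed, 2 were lower at an unadjusted p under 0.05, and DESeq2 and limma-voom called 0. These were Jak2, the kinase of many cytokine receptors, with a CPM of 190 and 120 in the wt/wt and 101 and 90.1 in the fl/fl libraries (log2 fold change −0.70, adjusted p = 0.144), and Stat2, a factor of type I interferon signalling (−0.58, adjusted p = 0.220). Without a filter both passed (adjusted p = 0.00700 and 0.0334), and Jak2 also did in DESeq2 without wt/wt 2 (0.0463). Of 13 other inhibitors, such as the PIAS proteins and the phosphatases Ptpn1, Ptpn2 and Ptpn6, 0 passed, with 1 higher and 1 lower at an unadjusted p under 0.05 and 1 lower in DESeq2 and in limma-voom. Usp18, which restrains the type I interferon receptor, had a CPM of 99.2 and 83.6 in the wt/wt and 27.2 and 50.7 in the fl/fl libraries (log2 fold change −1.23, adjusted p = 0.0630, edgeR). Usp18 lay near the threshold and passed in 10 of 17 other settings, among them edgeR without fl/fl 1 (−0.89, adjusted p = 0.0446) and without fl/fl 2 (−1.74, adjusted p = 0.00151). Cblb, a ubiquitin ligase, was at 0.60 (adjusted p = 0.105). The medians of the JAK and STAT list and of the other inhibitors were 0.01 and 0.00. At an unadjusted p under 0.05 stood 18.2% and 15.4% of these lists, against 22.5% of all tested genes.

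**Figure D4:**
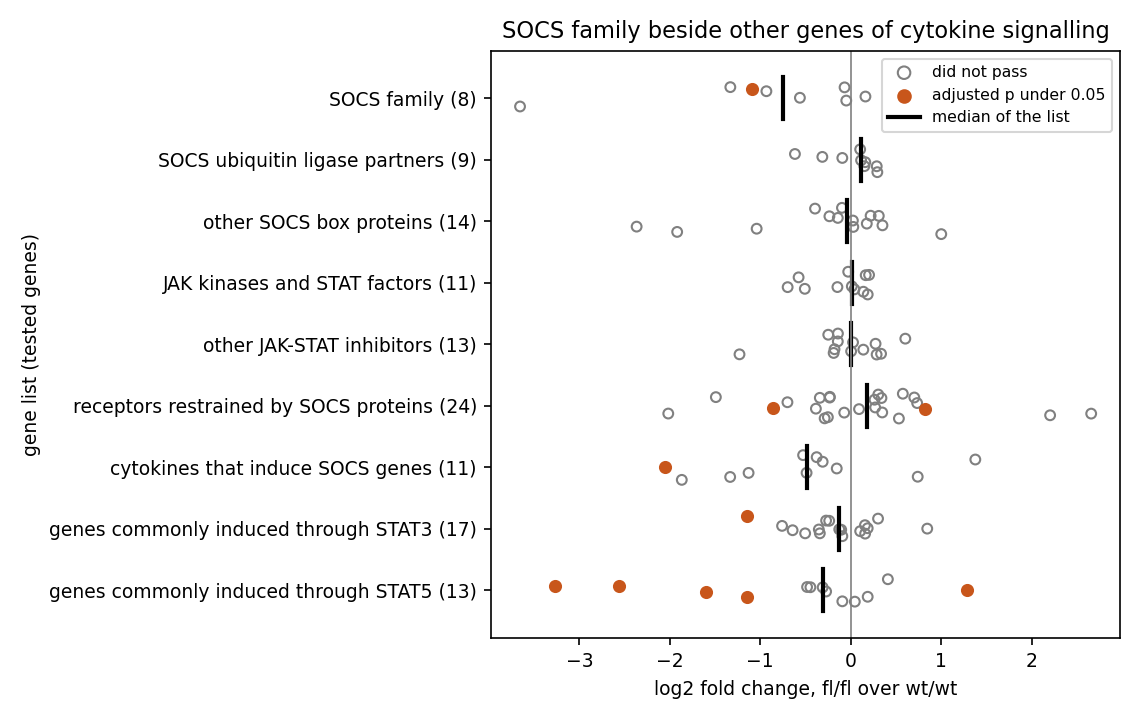
Log2 fold change, fl/fl over wt/wt, of every tested gene of the SOCS family and of 8 other lists of cytokine signalling genes (number of tested genes in brackets); orange points have an adjusted p under 0.05 and black bars are list medians. The SOCS family median lies at −0.75, the medians of the other lists lie between −0.49 and 0.18, and the list of genes induced through STAT5 holds 5 of the orange points.

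Among the receptors and kinases that SOCS proteins are known to restrain, 24 of 31 were tested and 2 passed, or 8.33%, near the 5.85% of all tested genes. An unadjusted p under 0.05 in edgeR was held by 33.3% of those tested, against 22.5% of all tested genes. Lifr, the receptor chain for the cytokine LIF, rose from 24.2 and 27.2 CPM to 45.5 and 45.3 CPM (log2 fold change 0.82, adjusted p = 0.0431), and Ifnar1, a chain of the type I interferon receptor, fell from 218 and 182 CPM to 103 and 117 CPM (−0.86, adjusted p = 0.0381; edgeR for both). The other 22 did not pass, and without fl/fl 1 neither did Lifr (adjusted p = 0.0771) or Ifnar1 (0.0608). Il2rb was at 2.21 and Kit at 2.66 without passing, and Kit held 13.7 CPM in fl/fl 1 against 2.23 in fl/fl 2. Of the cytokines that induce SOCS genes, 11 of 21 were tested, and 27.3% of those had an unadjusted p under 0.05 in edgeR. In this list 1 gene fell by adjusted p, or 9.09%, again near the 5.85% of all tested genes. This was Lif itself, which signals through gp130 and STAT3, with a CPM of 79.5 and 78.0 in the wt/wt and 22.9 and 15.1 in the fl/fl libraries (log2 fold change −2.05, SE 0.23; adjusted p = 0.0120, edgeR). Csf1, the growth factor of macrophages, was at −1.13 and Il27 at 0.74 (adjusted p = 0.11 and 0.206). Csf1 moved to −0.71 without fl/fl 1 and to −1.80 without fl/fl 2, where it passed (adjusted p = 0.00111), and it passed in 5 of 17 other settings.

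Genes that share the STAT inputs of the SOCS family were compared by list. Of 17 genes commonly induced through STAT3, the input of Socs3, 1 fell, or 5.88%, close to the 5.85% of all tested genes. It was Cdkn1a, the cell cycle inhibitor p21, which is also in the STAT5 list (log2 fold change −1.15, adjusted p = 0.0191, edgeR). Cebpd, a transcription factor that STAT3 induces, was at 0.85 (adjusted p = 0.0526) and Fosl2 at −0.76 (0.0724). The median of the STAT3 list was −0.13. Of its genes, 23.5% had an unadjusted p under 0.05 in edgeR, against 22.5% of all tested genes.

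The STAT5 list, the input of Cish and Socs2, held the most calls. Of its 15 genes, 13 were tested, 4 fell and 1 rose, which is 38.5% of those tested against 5.85% of all tested genes. An unadjusted p under 0.05 in edgeR was held by 46.2% of those tested, against 22.5% of all tested genes. The list was chosen with earlier results of these data known, so these shares are a description, and STAT5 signalling was not tested. The genes that passed, Ccnd1, Ccnd2, Myc, Cdkn1a and Ccnd3, are known as regulators of the cell cycle and growth. Ccnd1 and Ccnd2, D-type cyclins, fell from 26.4 and 15.3 CPM to 2.21 and 2.11 CPM (log2 fold change −3.27) and from 33.6 and 27.04 CPM to 5.07 and 5.19 CPM (−2.56). Myc, a transcription factor of growth, fell by 1.61 on the log2 scale, from 29.8 and 29.4 CPM to 11.4 and 8.10 CPM. Ccnd3, the D-type cyclin of the same list, rose instead (1.29, adjusted p = 0.0286, edgeR), from 111 and 158 CPM to 369 and 285 CPM. The other 8 did not pass; among them Pim1 was at 0.19 and Osm at −0.31, both named after their values were seen. Counts of STAT5 genes passing were 4 lower and 1 higher in DESeq2 and limma-voom too, and 5 and 1 without fl/fl 1 and 4 and 1 without fl/fl 2. With either wt/wt library left out, no gene of any of these lists passed in edgeR, whereas DESeq2 on the same libraries still called 4 lower STAT5 genes. The summed level of the cell cycle list was 333 and 228 CPM in wt/wt against 1192 and 514 CPM in fl/fl. Pcna, named after its values were seen, gave most of the wt/wt sums (237 and 170 CPM). It had overlapping libraries, at 217 and 194 CPM in fl/fl, so the other genes together differed by a larger factor than the sums. The part of the cell cycle genes in the STAT5 values was not tested.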

How the data were processed

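Poly(A)-enriched RNA of sorted liver myeloid cells was sequenced in 4 libraries. The authors deposited raw counts per Ensembl gene; FastQC 0.11.5, Trimmomatic 0.33, STAR 2.5.0 and the GRCm38 build are named in the submitters' processing notes, while the tool that counted reads, with its strand setting and annotation, is not given in the sources used here. If counting ignored strand, reads of opposite-strand genes cannot be told apart. Symbols, positions and merged exon lengths came from GENCODE M21 (GRCm38), with symbols completed from a supplied table of Ensembl names; together they covered 55227 of 55487 identifiers.

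Genotypes were compared with edgeR 4.0.16 (R 4.3.3): genes were kept by filterByExpr (group given, at least 10 counts; 13496 of the 22696 detected genes), scaled by TMM and tested with glmQLFit and glmQLFTest without covariates. SEs were obtained by dividing the size of each log2 fold change by the root of its F value, the 95% intervals use the fit's degrees of freedom, and the prior count was 0.125. The biological coefficient of variation was 25.5%. With 2 libraries against 2, an exact permutation test cannot go below 0.333, so none was used. Alternatives were RLE, library size and upper quartile scaling, other filters and prior count, DESeq2 1.42.0, limma-voom (limma 3.58.1), the replicate number as a block and leaving out each library; DESeq2 on 3 libraries was added after the data were seen. When a library is left out, the lone library of its genotype is assumed to vary like the other genotype.

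The members, lists and named genes were chosen with earlier results of these data known. Named were the 8 members, Il10ra and the passing and the most nearly passing genes of each list. The 3 nearest profiles of Socs3 and the 2 other members of smallest p were named too. Of the precursor, mature neutrophil and Kupffer lists, the 2 most expressed markers were named. The gate genes and the Kupffer markers Clec4f, Timd4 and Vsig4 were added to these. Other names are said to be chosen after their values were seen. One of the lists is not reported here, although its genes are counted in the totals over all lists.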

Additional observations from a re-analysis of the deposited data

How the results depend on the processing

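Over 17 other settings, the signs of Cish, Socs1, Socs2 (16 settings), Socs6 and Socs7 held. Members passing numbered 2 with library size scaling, upper quartile scaling or the CPM filter, 4 with no filter, 3 with DESeq2 and 0 to 3 with single libraries left out. Genes passing among all tested numbered 2088 with no filter, 1618 with DESeq2 and 0 to 1477 with single libraries left out, and those of the gene lists, 10 in the comparison as reported, numbered 29, 21 and 0 to 21. Library size scaling, upper quartile scaling and the CPM filter gave 1007, 872 and 836 passing genes, against 790 as reported. Tested genes numbered 22696 with no filter, 9439 with the CPM filter and 13496 in the other settings with all 4 libraries. The member counts are to be read beside these totals. The causes of these changes were not tested. DESeq2 without wt/wt 1, wt/wt 2, fl/fl 1 and fl/fl 2 left 0, 1, 3 and 2 members passing, 490 genes without wt/wt 1 and 1390 without fl/fl 2, and 6, 16, 17 and 21 list genes. With no filter Socs1 (log2 fold change −0.94) and Socs2 (−3.67) passed, as did Cish (−1.34; −1.34 with library size, −1.36 with upper quartile, −1.35 with the CPM filter and with DESeq2), and Socs2 with DESeq2 (−3.68). The family median was −0.58 with the CPM filter, which did not test Socs2, −0.86 to −0.56 with single libraries left out, and −0.54 and −0.56 in DESeq2 without wt/wt 1 and fl/fl 2.

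With single libraries left out, log2 fold changes ranged from −1.50 to −1.19 for Cish, −9.52 to −2.66 for Socs2, −0.25 to 0.15 for Socs3, −0.12 to 0.45 for Socs5 and −1.23 to −0.99 for Socs7. In DESeq2 on 3 libraries, Socs1 passed at −1.33 without wt/wt 2 and −1.28 without fl/fl 1, Socs2 at −8.63 without fl/fl 1 and −2.66 without fl/fl 2, Socs7 was lost at −0.96 without wt/wt 1 and −1.26 without wt/wt 2, and signs turned for Socs3 (0.18 without wt/wt 1, 0.0271 without fl/fl 2), Socs4 (0.00101 without fl/fl 2), Socs5 (−0.0883 without wt/wt 1) and Tyk2 (−0.0135 without wt/wt 2).

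With the replicate number as a block (replicate block), 1215 genes and 3 members passed: Socs7, Cish (log2 fold change −1.32, adjusted p = 0.0396) and Socs1 (−0.90, adjusted p = 0.0264). The labels do not say that the numbers pair libraries, and the deviations of equally numbered libraries from their genotype means had a correlation of 0.0215 over 13496 genes. Depth limits Socs2 most, at 0 to 141 counts.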
